A study of Mus musculus with 8 samples.

Results

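Autophagy and lysosome genes are described here as 51 genes chosen by their symbols, namely the 3 transcription factors Tfeb, Tfe3 and Mitf, 23 genes of the lysosome and 25 genes of the autophagy machinery, out of 34478 genes in the table of normalized counts. All 51 were found in the table and passed the filter of a mean of at least 10 normalized counts. RNA was sequenced from 4 primary pancreatic ductal adenocarcinoma (PDAC) lines of mice, numbered #1, #3, #5 and #10. Each line gave 1 library with the solvent DMSO and 1 library after 48 h with the MEK inhibitor trametinib at the IC50 of that line, 8 libraries in all. Every line, treated or not, carries the alleles Ptf1a wt/Cre and Trp53 loxP/loxP, so that Cre from the Ptf1a locus deletes Trp53 in cells of pancreatic origin. The controls thus share the loss of Trp53, and no line without it was analysed here.

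Lysosomes break down proteins, glycans and lipids in an acidic lumen that the vacuolar proton pump, the V-ATPase, keeps acid. In autophagy, a double membrane grows around cell content, closes and fuses with the lysosome. TFEB, TFE3 and MITF are related helix-loop-helix factors that enter the nucleus when mTORC1, the nutrient-sensing kinase at the lysosome, is inactive, and ERK can phosphorylate TFEB as well. They bind short palindromes of the letters CACGTG, often within the longer GTCACGTG, in front of many lysosomal and autophagy genes. PDAC cells are known for a high level of autophagy and of lysosomal breakdown.

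The promoters are shown first because these letters occur in front of a larger share of these genes than of all genes. Many lysosomal and autophagy genes were already known to carry these letters, so the larger share may follow from the choice of genes. RefSeq promoters of GRCm38.p6, from 250 bases before to 50 after a gene's start, were at hand for 42 of the 51 genes. On either strand, CACGTG was present in 14 of the 42 genes (33.3%), against 8.09% of the 27025 genes with a promoter and 11.3% of the 10908 of them that were tested. The longer letters, GTCACGTG or CACGTGAC on the other strand, each of which contains CACGTG, were present in 11 of the 42 genes (26.2%), against 2.55% and 4.56%. Genes with several starts have several windows, and over the 32851 windows themselves the shares were 7.15% and 2.25%. The shorter letters occurred in 10 of 22 lysosomal and TFEB-family genes (45.5%) and in 4 of 20 autophagy genes (20%). Lamp1 had 4 copies in the 76 bases just before its start, at chr8:13159085-13159160 on the plus strand. Stretches follow from Lamp1, from Gla (chrX:134601179-134601247, minus strand), Glb1 (chr9:114401015-114401050, plus strand) and Ctsa (chr2:164833746-164833772, plus strand), which were higher with trametinib, and from Atg3 (chr16:45158720-45158778, plus strand), which was not. The Ctsa stretch precedes a RefSeq start that lies within the gene as GENCODE M21 draws it, and it stops at that start, so a further copy that begins at base 6 of the transcript is not shown. Capitals mark each CACGTG, and the strand printed is that of the gene, 5′ to 3′.
Lamp1: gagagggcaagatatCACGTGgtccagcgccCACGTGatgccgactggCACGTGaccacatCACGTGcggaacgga
Gla: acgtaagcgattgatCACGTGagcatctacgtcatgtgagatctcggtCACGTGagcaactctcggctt
Glb1: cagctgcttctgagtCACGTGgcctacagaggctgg
Ctsa: caatgagcaaactgtCACGTGatgcag
Atg3: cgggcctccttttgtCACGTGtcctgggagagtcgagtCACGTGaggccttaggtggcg

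CACGTG was as frequent among the genes that rose as among the others. It was present in 10 of the 30 genes that were higher with trametinib and had a promoter (33.3%), namely Lamp1, Mcoln1, Cln3, Ctsa, Ctsd, Gla, Glb1, Atp6v0d1, Atp6v1a and Atg14. It was also present in 4 of the 12 that were not (33.3%), namely Ctsl, Atg3, Atg5 and Atg7. The longer letters were in 9 of 30 (30%) and in 2 of 12 (16.7%). Hexa, Lamp2 and Tfeb, each higher with trametinib, held neither in the windows searched.

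Most of the 51 genes were higher after 48 h of trametinib. The test was limma, blocked by line, with Benjamini-Hochberg correction across the 15888 genes that passed the filter. At an adjusted p under 0.05, 37 of the 51 (72.5%) were higher, against 27.3% of all genes tested, and 1 (1.96%), Atg5, was lower, against 25.6%. The median log2 fold change was 0.64, a 1.56-fold rise, against 0.07 over all genes tested. Fold changes are on the scale of log2(normalized count + 1). By line, 39 of the 51 (76.5%) were higher with trametinib in all 4 lines, against 34.7% of the genes tested. For 23 (45.1%), every trametinib library stood above every DMSO library, against 15.1%. The rises were moderate, and 13 of the 51 (25.5%) passed 2-fold with an adjusted p under 0.05, against 13.8%. Lysosomal and TFEB-family genes had 20 of 26 higher and none lower, with a median of 0.60. Autophagy genes had 17 of 25 higher and 1 lower, with a median of 0.80. Without the block for the line, limma called 24 of the 51 higher and none lower, against 13.9% and 14.8% of all genes tested in that fit. The 13 genes then lost were Tfeb, Lamp1, Cln3, Ctsb, Ctsh, Ctsz, Gla, Glb1, Gusb, Atp6v1a, Atg9a, Atg12 and Gabarapl2. With libraries rescaled to equal totals, 40 were higher and none lower, while the calls over all genes shifted from 27.3% higher and 25.6% lower to 33.5% and 20.6%.

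**Figure D1:**
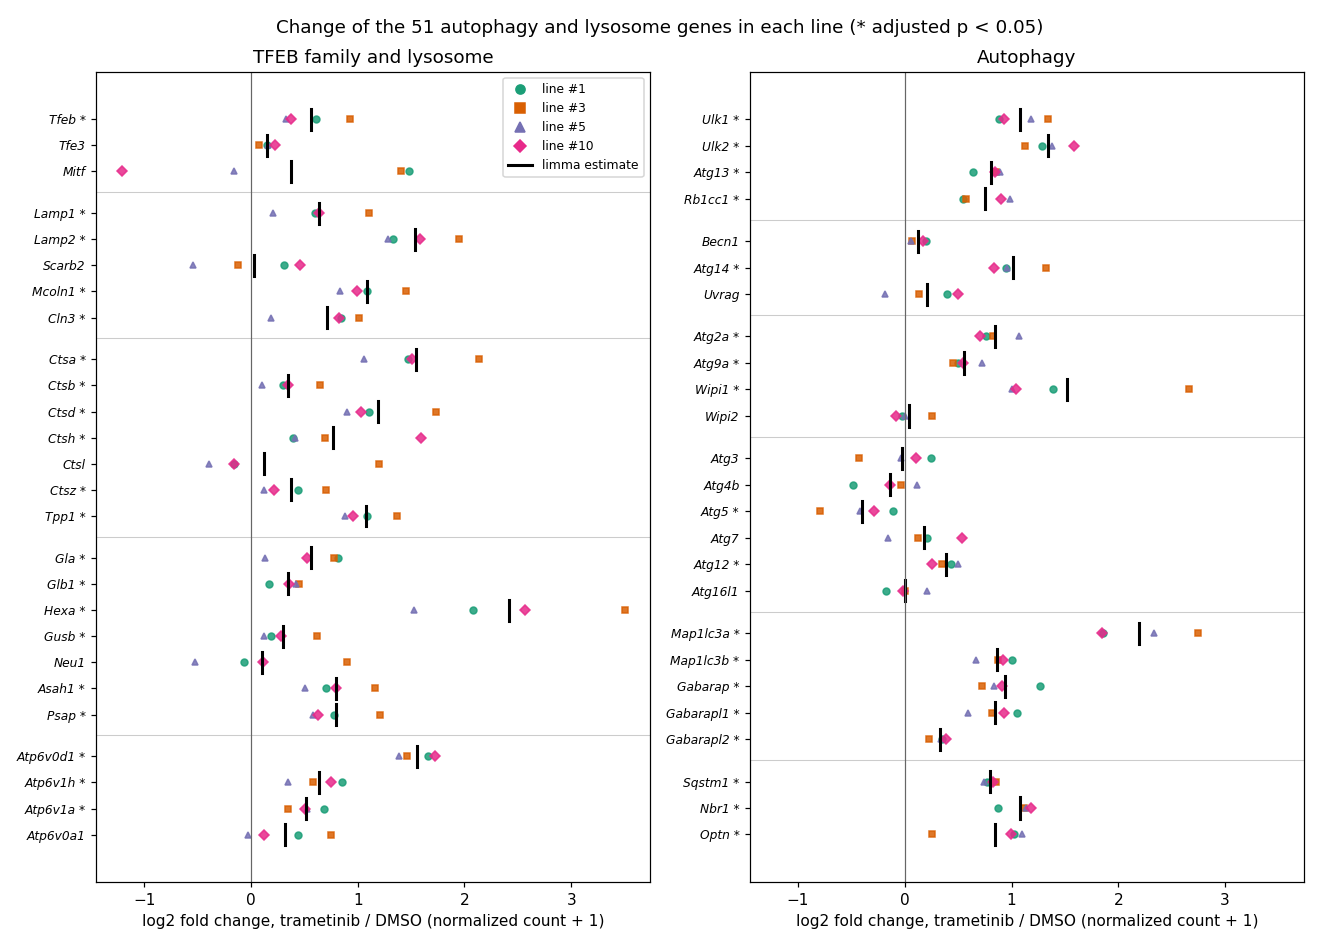
Log2 fold change of each of the 51 genes, trametinib over DMSO, on the scale of normalized count + 1. Points stand for the 4 lines, black bars for the limma estimate, grey lines separate role classes, and an asterisk marks an adjusted p under 0.05. Hexa and Map1lc3a lie farthest to the right, and Atg5 is the gene with an asterisk left of 0.

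**Figure D2:**
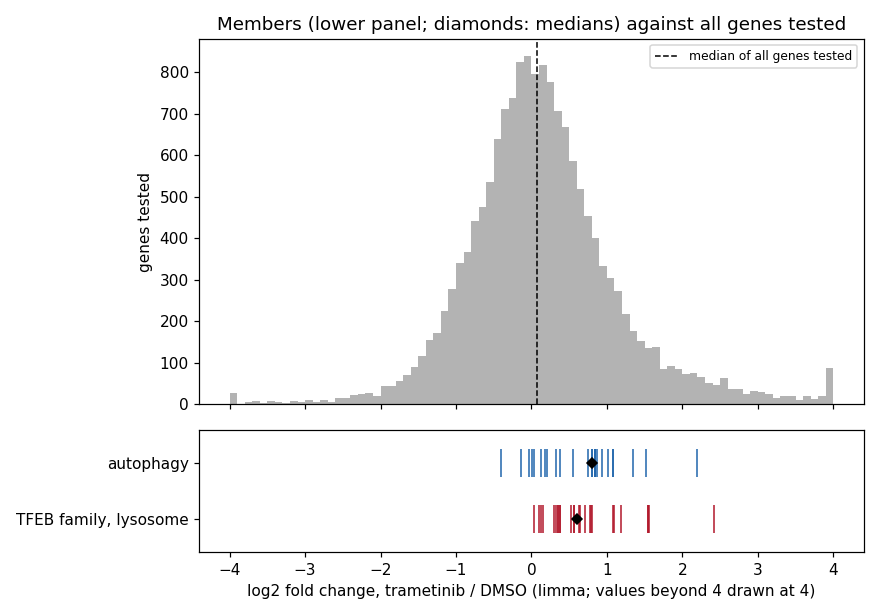
Histogram of the limma log2 fold changes of the 15888 genes tested (upper panel, number of genes per bin), with the 51 genes as ticks below and the median of each branch as a diamond. The medians of 0.60 for the lysosome and 0.80 for autophagy lie to the right of the median of all genes, 0.07.

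Among the TFEB family, Tfeb was higher with trametinib, beside 27.3% of all genes tested, while Tfe3 and Mitf were not called. Tfeb (chr17:47737030-47792419, plus strand), with this and later gene positions as GENCODE M21 gives them on GRCm38, stood at 349, 286, 246 and 374 normalized counts in lines #1, #3, #5 and #10 with DMSO, and at 533, 543, 310.1 and 484 with trametinib. It rose in each line, while the level in line #5 with trametinib remained below the DMSO levels of lines #1 and #10, so that the groups overlapped. The log2 change was 0.56 (standard error, SE, 0.14, limma adjusted p = 0.0166). This call was lost without the block (limma adjusted p = 0.112), with quantile normalization (0.0838) and without line #1 (0.0647). Tfe3, which shares most targets with Tfeb, stood at 2497, 992, 1899 and 1454 normalized counts with DMSO and at 2774, 1046, 2115 and 1703 with trametinib. Lines differed far more than treatments, and the log2 change was 0.15 (SE 0.08, limma adjusted p = 0.158). It was called as higher only with libraries rescaled to equal totals (limma adjusted p = 0.026). Mitf, the factor best known from pigment cells, was low throughout, at 1.79, 4.0, 34.7 and 25.3 normalized counts with DMSO and 6.78, 12.2, 31.0 and 10.4 with trametinib. The value was above DMSO after treatment of lines #1 and #3 and below it for #5 and #10. No call was made (log2 change 0.38, limma adjusted p = 0.579). Over the 13 alternatives that kept Mitf, the log2 change lay between -0.10 and 0.91, without a call.

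Proteins of the lysosomal membrane had 4 of 5 genes higher, beside 27.3% of all genes tested. Lamp2 (chrX:38401357-38456454, minus strand), a major glycoprotein of that membrane, of which a splice form is the receptor of chaperone-mediated autophagy, stood at 5334, 3315, 3417 and 2391 normalized counts in lines #1, #3, #5 and #10 with DMSO, and at 13383, 12805, 8340 and 7191 with trametinib. All 4 trametinib libraries lay above all 4 DMSO libraries, a 2.90-fold rise (log2 change 1.54, SE 0.13, limma adjusted p = 0.000335). Its partner Lamp1 had a smaller rise, with a log2 change of 0.64 (limma adjusted p = 0.0113), from 1.11 in line #3 to 0.20 in line #5. Mcoln1, the lysosomal calcium channel that signals to TFEB, rose 2.13-fold (log2 change 1.09, limma adjusted p = 0.00068). Cln3, a membrane protein whose loss causes a neuronal storage disease, had a log2 change of 0.72 (limma adjusted p = 0.00702). Scarb2, which carries glucocerebrosidase to the lysosome, went up in lines #1 and #10 and down in #3 and #5, with an estimate of 0.03 (limma adjusted p = 0.9).

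Among 7 proteases of the lumen, 6 were higher, beside 27.3% of all genes tested. Ctsa (chr2:164832873-164841032, plus strand), a carboxypeptidase that also shields beta-galactosidase and neuraminidase, stood at 4572, 5212, 3919 and 5963 normalized counts with DMSO and at 12644, 22885, 8192 and 16927 with trametinib. The groups did not overlap, and the level with trametinib was 2.91-fold that with DMSO (log2 change 1.54, SE 0.17, limma adjusted p = 0.00069). Ctsd, the main aspartic protease, rose from a mean of 11049 to 25721 normalized counts (log2 change 1.19, limma adjusted p = 0.00108). Tpp1, a tripeptidyl peptidase, had a log2 change of 1.07. Ctsh, an aminopeptidase, had 0.77, with 1.59 in line #10 and 0.39 to 0.69 in the others, and 0.50 without line #10. The cysteine proteases Ctsb and Ctsz had 0.35 and 0.37 and were not called when line #1 or line #10 was left out. Nor were they called with centring on the median, with no filter or with eBayes without trend. Ctsl, a cysteine protease, was not called, with 1.20 in line #3 and between -0.40 and -0.16 in the other three. Without line #3, Ctsl was called as lower, with a log2 change of -0.24 (limma adjusted p = 0.0435).

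Enzymes of glycan and lipid breakdown had 6 of 7 genes higher, beside 27.3% of all genes tested. The largest rise of all 51 was that of Hexa. Hexa (chr9:59539540-59565109, plus strand) encodes the alpha subunit of beta-hexosaminidase, the enzyme missing in Tay-Sachs disease. It stood at 654, 226, 768 and 148.5 normalized counts in lines #1, #3, #5 and #10 with DMSO and at 2763, 2568, 2222 and 884 with trametinib. Each line rose and the groups did not overlap. The rise was 5.34-fold (log2 change 2.42, SE 0.29, limma adjusted p = 0.00101), with 3.50 in line #3 and 1.53 in line #5. Psap, the precursor of the saposins that present lipids to hydrolases, had a log2 change of 0.80, and Asah1, the acid ceramidase, had 0.79. Gla, the alpha-galactosidase, had 0.56, and was not called without line #1 (0.48, limma adjusted p = 0.0698). Glb1, the beta-galactosidase whose activity is stained as a mark of senescent cells, had a log2 change of 0.35 (SE 0.09, limma adjusted p = 0.0163), or 1.27-fold. It was higher in all 4 lines, by 0.17 to 0.45, and was no longer called without line #5 or without line #10. Centring on the median also ended the call of Glb1 (limma adjusted p = 0.0513). Gusb, the beta-glucuronidase often used as a reference gene, passed narrowly at 0.30 (limma adjusted p = 0.0467). Each line left out ended the call, with 0.20 without line #3. So did centring on the median, no filter and eBayes without trend. Neu1, a neuraminidase, was at 0.90 in line #3, at -0.52 in line #5, and not called.

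The V-ATPase genes had 3 of 4 higher, beside 27.3% of all genes tested. Atp6v0d1 (chr8:105524465-105566047, minus strand), the d subunit that joins the membrane sector to the rotor, stood at 1547, 1262, 1113 and 1263 normalized counts with DMSO and 4891, 3470, 2912 and 4181 with trametinib. The lines rose alike, by 1.39 to 1.73, and the groups were far apart (log2 change 1.56, SE 0.09, limma adjusted p = 0.000163). Atp6v1h and Atp6v1a, of the sector that splits ATP, had log2 changes of 0.63 and 0.52. Atp6v0a1, a proton channel subunit, was not called (0.32, limma adjusted p = 0.0902), and line #5 stood at -0.03. The log2 change was 0.18 without line #3, and the gene was called only with libraries rescaled to equal totals or with quantile normalization (limma adjusted p from 0.0279 to 0.279 over the 14 alternatives).

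**Figure D3:**
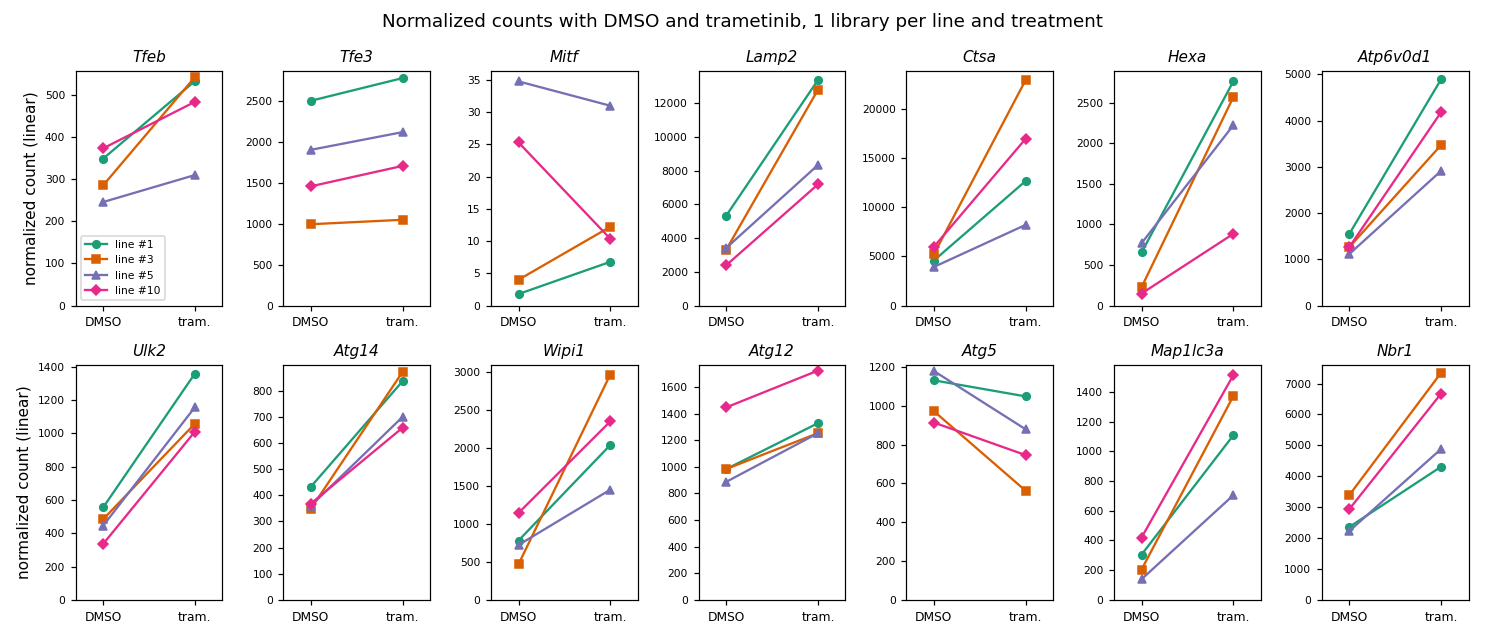
Normalized counts (linear axes that start at 0) of 14 genes with DMSO and with trametinib (tram.), with a line for each cell line. Lamp2, Ctsa, Hexa, Atp6v0d1, Ulk2, Atg14, Wipi1, Map1lc3a and Nbr1 rise without overlap between the groups, Mitf goes either way, and Atg5 falls.

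In the autophagy branch, the kinase complex that starts the process had all 4 genes higher, beside 27.3% of all genes tested. Ulk2 (chr11:61775649-61855073, minus strand), one of its kinases, stood at 556, 484, 446 and 336 normalized counts in lines #1, #3, #5 and #10 with DMSO and at 1360, 1059, 1158 and 1011 with trametinib. No DMSO library reached the lowest trametinib library (log2 change 1.35, SE 0.11, limma adjusted p = 0.000365). The sister kinase Ulk1 had a log2 change of 1.08. Its partners Atg13 and Rb1cc1, also known as FIP200, had 0.81 and 0.75.

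Of the phosphatidylinositol 3-kinase complex, which marks the site where the membrane grows, 1 of 3 genes was called higher, beside 27.3% of all genes. Atg14 (chr14:47540893-47570649, minus strand), the subunit that commits the complex to autophagy, stood at 433, 348, 360.0 and 368 normalized counts with DMSO and at 837, 873, 701 and 659 with trametinib. Each trametinib level was above each DMSO level, and the rise was 2.02-fold (log2 change 1.02, SE 0.12, limma adjusted p = 0.00103). Becn1, the core subunit, had a log2 change of 0.12 (limma adjusted p = 0.217). Uvrag, the subunit of the alternative complex, had 0.21 (limma adjusted p = 0.223). It was at -0.18 in line #5, and had 0.34 without that line and 0.12 without line #10. Becn1 was called as higher with libraries rescaled to equal totals and with quantile normalization.

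Genes for the supply of membrane and the reading of phosphatidylinositol 3-phosphate had 3 of 4 higher, beside 27.3% of all genes tested. Wipi1 (chr11:109573331-109611967, minus strand), a reader of that lipid, stood at 781, 470, 723 and 1145 normalized counts with DMSO and at 2041, 2971, 1452 and 2352 with trametinib. The groups did not overlap, and line #3 went from the lowest level to the highest (log2 change 1.52, SE 0.27, limma adjusted p = 0.00381). The related reader Wipi2, which recruits the conjugation machinery, had 0.04 and was not called (limma adjusted p = 0.746). The lipid transfer protein Atg2a had a log2 change of 0.84, and the lipid scramblase Atg9a had 0.56.

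The conjugation machinery attaches ATG8 proteins to the membrane. It had 1 gene higher and 1 lower, beside 27.3% and 25.6% of all genes tested, and 4 not called. Its median log2 change was -0.01, and 0.12 with libraries rescaled to equal totals and 0.04 with quantile normalization. Atg12, a ubiquitin-like protein, stood at 984, 984, 888 and 1448 normalized counts with DMSO and at 1329, 1254, 1254 and 1725 with trametinib. It was higher in each line, though line #10 with DMSO exceeded the other three with trametinib (log2 change 0.38, SE 0.09, limma adjusted p = 0.0119). This call was lost without the block, without line #1 and without line #5. Atg5 (chr10:44268358-44364291, plus strand), to which Atg12 is joined, stood at 1132, 973, 1180 and 914 normalized counts with DMSO and at 1049, 562, 879 and 746 with trametinib. The level was lower in each line and the groups overlapped (log2 change -0.40, SE 0.13, limma adjusted p = 0.0378). The call of Atg5 was lost in 7 of 14 alternatives, with adjusted p between 0.0127 and 0.177 in limma. Atg3 and Atg7, the enzymes that pass on ATG8 proteins, had -0.03 and 0.18. Atg7 was at 0.54 in line #10 and at -0.16 in line #5, and had 0.06 without line #10. Atg4b, the protease that trims them, had -0.14, and Atg16l1, the scaffold of the ligase, had 0.00.

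ATG8 proteins coat the growing membrane and hold the cargo receptors. All 5 genes of the ATG8 family were higher, beside 27.3% of all genes tested. Map1lc3a (chr2:155276297-155278073, plus strand), or LC3A, stood at 304, 204, 138.5 and 420 normalized counts in lines #1, #3, #5 and #10 with DMSO and at 1108, 1372, 704 and 1513 with trametinib. No levels overlapped between the groups, and the rise was 4.59-fold (log2 change 2.20, SE 0.18, limma adjusted p = 0.00033). Gabarap had a log2 change of 0.94, Map1lc3b, or LC3B, 0.87, Gabarapl1 0.85 and Gabarapl2 0.33. Gabarapl2 was not called without the block, nor when line #1, #5 or #10 was left out.

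Levels within the family were compared per kb of the longest protein-coding transcript in GENCODE M21, since longer transcripts give more reads. The longest transcript need not be the one that is expressed, which was not examined. A gene with a shorter expressed transcript has its level per kb understated, so the order of genes by this measure depends on that choice. Ctsl, for example, was divided by 6168 bases. Gabarap was the most abundant in every library, at a mean of 2884 normalized counts per kb with DMSO and 5538 with trametinib. It was followed by Map1lc3b, at 1356 and 2499 per kb. Map1lc3a was the least abundant with DMSO, at 240 per kb, or 2.2% to 5.22% of the family's summed level. With trametinib it reached 1056 per kb, or 6.60% to 11.5%, and those shares lay above all shares with DMSO. Gabarapl2 took the opposite course as a share, from between 15.8% and 22.4% with DMSO to between 10.4% and 14.97% with trametinib, while its own level was higher in each line. Among all 51 genes, Lamp1 had the highest mean level per kb in both treatments (9417 and 15179), and Mitf the lowest (3.37 and 3.09). In line #5 with trametinib, however, Ctsd (10332) and Psap (9163) stood above Lamp1 (9028). With DMSO, Psap (6210) and Ctsd (5195) came next after Lamp1, and with trametinib Ctsd (12093) stood above Psap (10972) in the mean.

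**Figure D4:**
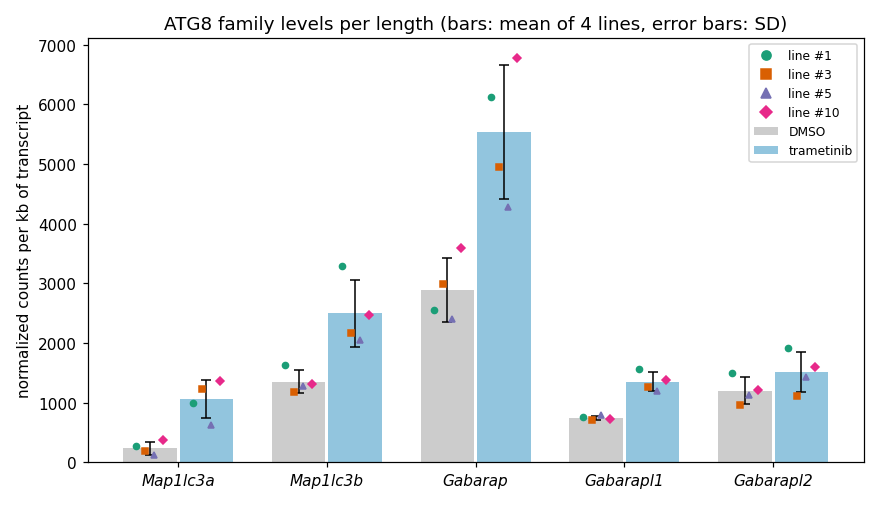
Normalized counts per kb of transcript of the 5 ATG8 family genes. Bars are means of 4 lines, error bars the SD, and points the lines. Gabarap has the tallest bars (2884 with DMSO and 5538 with trametinib), and Map1lc3a goes from 240 to 1056.

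The cargo receptors, which link ubiquitinated cargo to ATG8 proteins, were all higher, beside 27.3% of all genes tested. Nbr1 (chr11:101552149-101581951, plus strand) stood at 2356, 3387, 2223 and 2930 normalized counts with DMSO and at 4305, 7343, 4879 and 6669 with trametinib. The groups were apart, and the lines rose by 0.87 to 1.19 (log2 change 1.08, SE 0.09, limma adjusted p = 0.000335). Sqstm1, or p62, which is itself broken down by autophagy as a protein, rose by 0.74 to 0.85 in the 4 lines (log2 change 0.80, limma adjusted p = 0.000536). Optn, also a receptor for mitochondria, had 0.84, with 0.26 in line #3 and 0.99 to 1.09 in the other lines.

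For lysosomal and TFEB-family genes, the median log2 change was 0.69 in line #1, 0.97 in line #3, 0.34 in line #5 and 0.58 in line #10. Line #3 had the largest value for 18 of these 26 genes, and line #5 had the smallest for 21. The autophagy genes did not follow that order, with medians of 0.64, 0.57, 0.72 and 0.82, and the smallest values were spread over the lines (6, 7, 7 and 5 of 25 genes). Over all genes tested, the medians by line were 0.05, 0.06, 0.03 and 0.04. Within the ULK complex line #5 had the highest median (1.08) and within the proteases the lowest (0.41). The summed normalized counts of the 26 lysosomal and TFEB-family genes with trametinib were 1.6, 2.19, 1.3 and 1.59 times those with DMSO in lines #1, #3, #5 and #10, and those of the 25 autophagy genes were 1.59, 1.59, 1.53 and 1.61 times. Line #5 had the lowest ratio in both branches. With 1 library per line and treatment, a difference between lines could not be tested.

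**Figure D5:**
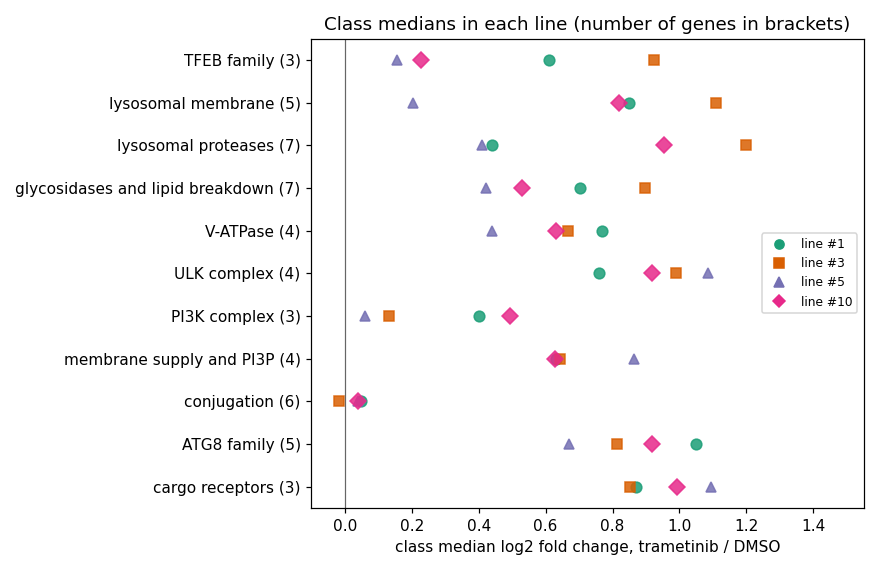
Median log2 change of each of the 11 role classes in each line, trametinib over DMSO on the scale of normalized count + 1, with the number of genes in brackets. Line #5 lies farthest left in the TFEB family, the lysosomal classes, the V-ATPase, the PI3K complex and the ATG8 family, and farthest right in the ULK complex, the membrane supply class and the cargo receptors, and the conjugation class lies near 0 in all lines.

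With DMSO alone, levels also differed between lines. The highest DMSO library stood 1.52-fold above the lowest in the median gene. The widest ranges were those of Mitf (19.4-fold, at low counts), Ctsh (9.99-fold, 437 in line #10 to 4364 in line #1), Hexa (5.17-fold) and Map1lc3a (3.03-fold). Gabarapl1 had the narrowest, at 1.11-fold.

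Other genes of the same pathways, from 4 lists, were examined in the same fit. Of 50 other lysosomal proteins tested, 39 were higher and 1 lower, beside 27.3% and 25.6% of all genes, with a median log2 change of 0.82. Ctsf, a cysteine protease, stood at 58.9, 18.7, 28.6 and 42.2 normalized counts in lines #1, #3, #5 and #10 with DMSO and at 441, 710, 363 and 368 with trametinib. The groups were far apart (log2 change 3.69, limma adjusted p = 0.000609). Ctns, the exporter of cystine, rose 4.76-fold (log2 change 2.25, limma adjusted p = 0.000321). Ctsc, a dipeptidyl peptidase that activates proteases of immune cells, fell from a mean of 2545 to 1168 normalized counts (log2 change -1.11, limma adjusted p = 0.000526). Of 12 other V-ATPase subunits, 11 were higher and none lower, beside the same shares of all genes, with a median of 0.60. The largest rises were those of Atp6v1d (0.92) and Atp6v0e (0.90). Without the block, where 13.9% of all genes were higher, 28 of the 50 other lysosomal proteins and 5 of the 12 V-ATPase subunits were higher. Of the 12 subunits, 7 were higher without line #1 and 8 without line #10, beside 21.4% and 21.7% of all genes.

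Of 39 other autophagy proteins, 24 were higher and 2 lower, beside 27.3% and 25.6% of all genes, with a median log2 change of 0.41. Without the block 10 were higher, beside 13.9% of all genes, and 14 were higher without line #1 or without line #10, beside 21.4% and 21.7%. The count lower was 1 with any line left out. Calcoco1, a receptor for the endoplasmic reticulum, stood at 658, 628, 450.1 and 930 normalized counts with DMSO and at 3748, 4934, 4125 and 4313 with trametinib. This 6.60-fold rise was above that of any of the 51 genes (log2 change 2.72, limma adjusted p = 0.000174). Zfyve1, or DFCP1, which marks the membrane where autophagosomes form, rose 4.36-fold (log2 change 2.12, limma adjusted p = 0.000234). The mitochondrial receptor Fundc1 fell by 0.60 on the log2 scale (limma adjusted p = 0.00241). Wdr45b, a lipid reader related to the Wipi genes, fell by 0.27 (limma adjusted p = 0.0364), a call lost without the block (limma adjusted p = 0.107), with equal library totals, with quantile normalization and with any line left out.

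The list of genes that control TFEB, among them mTORC1, the Rag GTPases and AMPK, was mixed. Of 36 tested, 9 were higher and 6 lower, beside 27.3% and 25.6% of all genes, with a median log2 change of 0.10. With libraries rescaled to equal totals, 13 were higher and 2 lower, beside 33.5% and 20.6% of all genes, and 3 were lower without line #5 or without line #10, beside 20.9% and 20.8%. Without the block, 5 were higher and 1 lower, beside 13.9% and 14.8% of all genes. Rragd, a Rag GTPase through which mTORC1 reaches TFEB, stood at 54.8, 4.84, 17.3 and 14.8 normalized counts with DMSO and at 199, 49.6, 60.9 and 53.4 with trametinib. It was higher in each line at low counts (log2 change 2.12, limma adjusted p = 0.00203, 0.0527 without the block). Sesn3, a stress-induced brake on mTORC1, had a log2 change of 1.41 (limma adjusted p = 0.000447). Prkab1, a subunit of AMPK, fell from a mean of 2691 to 1413 normalized counts (log2 change -0.93, limma adjusted p = 0.000428). Stk11, or LKB1, the kinase that activates AMPK, fell by 0.42 on the log2 scale (limma adjusted p = 0.00495, 0.0718 without the block). Tsc2, singled out after its values were seen, is listed at 0 in all libraries but DMSO of line #3, so its row says little about a gene that cells commonly use.

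The libraries summed to between 30680091 and 36385719 normalized counts, of which DMSO had a median of 35151665 and trametinib of 32233061. Of 10 genes of MAPK output, 9 were lower with trametinib, beside 25.6% of all genes tested. Dusp6, the feedback phosphatase of ERK, was among them (log2 change -2.51). Epha4 was the other gene, higher in all 4 lines but not called (log2 change 0.87, limma adjusted p = 0.0504). The epithelial genes Krt7, Krt8, Krt18, Krt19 and Cdh1 were each at 9734 normalized counts or more in every library. Muc1 lay between 1327 and 14353 and Sox9 between 65.5 and 1246, whereas Epcam is listed at 0 in lines #1, #5 and #10. Of the 7 epithelial markers tested, 6 were lower with trametinib, beside 25.6% of all genes tested. Line #3 had the largest falls of Sox9 (-2.86), Krt7 (-1.67), Krt8 (-1.58), Krt18 (-1.36) and Krt19 (-1.22), and line #5 that of Muc1 (-1.81). Macrophages are rich in lysosomes, and of 10 of their markers 7 are in the table and 5 were tested. Csf1r was higher (log2 change 2.83) and Mrc1 lower (-6.72). The macrophage list summed to 1283 to 4888 normalized counts with DMSO and 259 to 585 with trametinib, or 149.6 to 234 and 236 to 518 without Mrc1, while Lyz2 was at or below 1.91 in every library. Of 8 fibroblast markers 5 were tested and 1, Col1a1, was higher (log2 change 3.60). Their sum was 94.9 to 366 with DMSO and 440.0 to 1258 with trametinib, with Lum listed at 0 throughout. Of 7 acinar markers 1 was tested, Cela1, which was lower, and Cpa1 is listed at 0 throughout. Their part in the changes of the autophagy and lysosome genes was not tested. In such bulk libraries, fewer cells of a type and less RNA per cell cannot be told apart.

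For 19 of the 51 genes, exons overlap those of another gene in GENCODE M21, among them Lamp1, Ctsa, Ctsd, Hexa, Glb1, Atg14, Map1lc3b and Sqstm1, so their values are uncertain where reads could be shared. The labels name no repeated cultures of a line, so p-values of the blocked fit measure how far the change with trametinib varied between these 4 lines. The lines' own levels are taken up by the block.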

How the data were processed

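Stranded mRNA libraries were prepared from 8 samples, 4 lines with DMSO and the same 4 with trametinib for 48 h. The authors deposited 1 table of normalized counts per gene symbol, a signal already scaled by them so that libraries can be compared, and per the labels' processing notes CASAVA 2.17, Salmon 0.12, DESeq2 1.18 and the build mm10 were used, without the role of each. The method of scaling is not given in the sources used here, and how many reads lie behind a value is unknown. Low values are therefore the least precise. Several genes that cells commonly use are listed at 0 in some libraries, so a 0 is given as listed at 0.

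From the table, log2(value + 1) was computed for genes with a mean of at least 10, and limma 3.58.1 in R 4.3.3 (lmFit, and eBayes with a trend) tested trametinib against DMSO with the line as a block. This was used because the deposited values are not reads. Benjamini-Hochberg correction covered all 15888 genes kept, at a threshold of 0.05. The labels give both libraries of a line its number, which pairs them, and their deviations from the treatment means correlated across genes at 0.64, 0.65, 0.63 and 0.72 in lines #1, #3, #5 and #10. On simulated data for this comparison, the fit recovered 183 of 196 genes changed 2-fold among 16044, with 4 false calls. In that simulation few genes changed, and each changed alike in every line. In the data many genes changed and lines differed in their changes, so these counts are not error rates of the calls given here.

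The 51 genes, their 11 role classes, the 4 pathway lists and the marker lists were chosen with earlier results of these data known. Values in every library are given for the TFEB family, for the called gene with the largest rise and the largest fall in each other class, and for the 5 largest rises and falls. Of each pathway list, the 2 largest called rises and falls are named. Other genes are named to account for all 51. Positions and transcript lengths came from GENCODE M21 on GRCm38 by symbol, with all 51 found, and promoters from RefSeq (GRCm38.p6). Tables and plots were made in Python 3.11.15 with pandas 2.3.3, numpy 2.4.6 and matplotlib 3.10.9.

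The alternatives were pseudocounts of 0.1 and 5, equal library totals, quantile normalization, centring on the median, no filter, a filter at 50, no block, eBayes without trend or with robust estimation, and leaving out each line. One allele that all lines carry is not reported here.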

Additional observations from a re-analysis of the deposited data

Results flagged for a closer look

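In groups of 4 lines, a value was picked out where it lay far from the other three by Dixon's criterion at the 95% level. Over the 153 groups looked at, which are the 51 genes with DMSO, with trametinib and as a change, 7 were picked out, and chance would give 7.65. Of these, 6 belong to line #3.

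Ctsl, a lysosomal cysteine protease, had a log2 change of 1.20 in line #3, against -0.40 to -0.16 in the other lines. Glb1, the beta-galactosidase, stood at 2038 normalized counts in line #3 with DMSO, against 1213 to 1307 in the others, and at 2793 with trametinib, against 1473 to 1624. Neu1, a neuraminidase, stood at 6302 in line #3 with DMSO, against 4957 to 5166. Atp6v0a1, a V-ATPase subunit, stood at 13073 in line #3 with trametinib, against 6945 to 7946. Optn, a cargo receptor, had a log2 change of 0.26 in line #3, against 0.99 to 1.09. Atg12, the ubiquitin-like protein of the conjugation machinery, stood at 1725 in line #10 with trametinib, against 1254 to 1329. The differences between lines were not tested, since each line has 1 library per treatment.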

How the results depend on the processing

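The median log2 change of the 51 genes lay between 0.58 and 0.77 under the 14 alternatives, and none of the 51 changed direction with a call in both. Between 30 and 40 genes were called higher under the alternatives other than the fit without the replicate block for the line. Of all genes tested, 33.5% were higher with equal library totals (40 of the 51), 13.1% with no filter (34) and 21.4% without line #1 (30). Without the block, 24 of the 51 genes and 10 of the 26 lysosomal and TFEB-family genes were higher, as were 48 genes of the 4 pathway lists (3 lower) and 2205 of all genes tested (2347 lower). The list counts without the block were 5 of 12 for the V-ATPase, 10 higher and 1 lower for other autophagy proteins, and 5 higher and 1 lower for the control of TFEB. No gene of the 51 (0), and so no autophagy gene (0), was lower with equal library totals, with no filter, without the block or with eBayes without trend, where Atg5 was lost. With each line left out in turn, 0 to 1 of the 51 were lower, 0 to 1 of the lysosomal genes (Ctsl, without line #3) and 0 to 1 of the autophagy genes. In the main fit, 1 of the other lysosomal proteins, 0 V-ATPase subunits, 2 autophagy proteins and 6 genes of TFEB control were lower, beside 25.6% of all genes. Genes of the pathway lists lower were 4 with equal totals, 5 with eBayes without trend, and 5 to 7 with each line left out. Beside these, 20.6%, 23.2% and 20.8% to 25.2% of all genes were lower. Equal totals moved the median of all genes by 0.13 and quantile normalization by -0.10. The cause of these differences was not tested. Fits with a line left out also had fewer samples, and the fit without the filter also tested more genes. The reads behind a value are unknown, so no limit of depth is given, and low genes such as Mitf are the least certain.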
